A study of Mus musculus with 8 samples.

Results

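The 10 genes described are, in brain pericytes given TGF-β1, the NADPH oxidase genes *Nox1*, *Nox4* and *Cyba*, and the antioxidant genes *Sod1*, *Sod2*, *Sod3*, *Cat*, *Hmox1*, *Nqo1* and *Gpx3*. They were taken by symbol, and all 10 were found among the 54532 gene identifiers of the deposited count files. The data are bulk RNA-seq of 8 primary cultures of wild-type (WT) mouse brain pericytes, of which 4 received vehicle and 4 received TGF-β1 at 5 μg/mL, for 48 h in either case. TGF-β1 is a secreted cytokine that signals through SMAD transcription factors, and the study used it to model what a tumor may send to pericytes. No transgene or other treatment is named for either group, and the labels give neither strain nor age. As a model the cells have limits, since according to the methods they were expanded over several passages in serum, first in endothelial medium and then in pericyte medium. The methods also describe isolates that received both vehicle and TGF-β1, but in the labels the replicate numbers run on from one group to the next (1 to 4, then 5 to 8), so the groups were compared without pairing.

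NADPH oxidases are membrane enzymes that move electrons from NADPH to oxygen and so make superoxide or hydrogen peroxide on purpose. *Nox4* encodes a constitutively active catalytic subunit that gives off mostly hydrogen peroxide, *Nox1* and *Cybb* (which encodes NOX2) need cytosolic organisers and activators, and *Cyba* encodes p22phox, the membrane partner of all of these. Superoxide dismutases turn superoxide into hydrogen peroxide in the cytosol (*Sod1*), the mitochondrial matrix (*Sod2*) and outside the cell (*Sod3*), and catalase, glutathione peroxidases and peroxiredoxins remove the peroxide. Many of the genes that defend cells against oxidants carry antioxidant response elements, which the factor NRF2 (*Nfe2l2*) binds together with small MAF proteins. In vessels these enzymes are known for setting how much nitric oxide survives around mural cells.

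Each culture had between 45255235 and 47651397 counts, and these totals did not differ between groups beyond their spread (exact permutation test, two-sided, p = 0.857). Values are given as CPM, a gene's count divided by the size of its library after TMM scaling, and 3 counts correspond to between 0.0631 and 0.0658 CPM. *Cthrc1*, a known TGF-β target that serves as the check of the treatment, rose from between 29.8 and 33.5 CPM to between 63.3 and 68.3 CPM (log2 fold change 1.06, standard error 0.04, edgeR adjusted p = 2.58e-26). Of the pericyte markers, *Pdgfrb* was at 202 ± 5.43 CPM with vehicle and 291 ± 2.58 CPM with TGF-β1 (SD, n = 4 each), whereas *Kcnj8* and *Abcc9* did not pass 0.19 CPM and *Des* not 0.78 CPM in any culture. Of the endothelial markers, *Cdh5* lay between 349 and 383 CPM, *Kdr* between 16.2 and 20.4 CPM and *Tek* between 1.83 and 3.41 CPM. *Pecam1* did not pass 1.65 CPM, *Emcn* not 0.298 CPM and *Cldn5* not 0.213 CPM. The label is thus met by some pericyte markers and not by others, and some endothelial markers were present as well. The labels do not tie a culture to an isolate or animal, so p-values measure the spread between these cultures.

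Upstream sequences are shown for the oxidases that moved in opposite directions (*Nox4* and *Cybb*) and for the dismutases that have one in the table used (*Sod1* and *Sod2*). Each line gives the 250 bases before the RefSeq transcription start, 5′ to 3′ on the strand of the gene, in GRCm38. Capitals mark matches, on either strand, to 4 motifs: the antioxidant response element core TGACNNNGC, a loose AP-1 pattern TGANTCA, the SMAD-binding CAGA element CAGAC and the GC box GGGCGG. In these, N stands for any base. *Nox4* is on the plus strand at chr7:87246399-87246648, *Cybb* on the minus strand at chrX:9469325-9469574, *Sod1* on the plus strand at chr16:90220512-90220761 and *Sod2* on the plus strand at chr17:13007589-13007838.
Nox4: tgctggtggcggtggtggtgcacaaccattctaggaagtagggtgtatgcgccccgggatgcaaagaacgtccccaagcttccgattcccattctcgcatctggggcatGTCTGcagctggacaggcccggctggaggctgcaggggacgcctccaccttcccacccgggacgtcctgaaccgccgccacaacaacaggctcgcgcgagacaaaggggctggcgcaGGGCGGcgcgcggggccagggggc
Cybb: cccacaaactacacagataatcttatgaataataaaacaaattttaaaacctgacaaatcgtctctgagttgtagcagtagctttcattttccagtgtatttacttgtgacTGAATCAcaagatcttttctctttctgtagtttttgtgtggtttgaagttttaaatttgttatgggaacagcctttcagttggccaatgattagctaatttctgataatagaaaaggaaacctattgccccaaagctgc
Sod1: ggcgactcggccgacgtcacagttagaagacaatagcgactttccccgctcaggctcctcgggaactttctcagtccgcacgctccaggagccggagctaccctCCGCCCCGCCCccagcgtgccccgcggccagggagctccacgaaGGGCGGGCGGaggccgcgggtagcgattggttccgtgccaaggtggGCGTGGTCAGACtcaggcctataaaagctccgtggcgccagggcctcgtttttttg
Sod2: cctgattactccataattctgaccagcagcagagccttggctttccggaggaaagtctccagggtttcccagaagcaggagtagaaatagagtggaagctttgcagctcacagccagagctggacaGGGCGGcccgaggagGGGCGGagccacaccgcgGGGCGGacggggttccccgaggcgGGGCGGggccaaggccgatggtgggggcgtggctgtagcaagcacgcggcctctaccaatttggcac

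Of the 10 genes, 8 had an upstream sequence in the RefSeq table used, and those of *Sod3* and *Hmox1* are not shown. GC boxes were found in 7 of the 8, with 4 each in *Sod1* and *Sod2*, against 32.7% of all 32851 upstream sequences of that length. The antioxidant response element core was found in 1 of the 8, *Sod1*, from -56 to -48 before its start, against 10.2% of all sequences. In *Sod1* this match shares bases with a CAGA element that runs from -49 to -45, and its 4 GC boxes form 2 overlapping pairs, from -146 to -136 and from -102 to -93. CAGA elements were found in 3 of the 8 (*Nox4*, *Sod1* and *Gpx3*), against 42.2% of all. No member had an AP-1 site, which 6.75% of all sequences hold, while *Cybb* had 1. *Nox1* had none of the 4 motifs. These matches are a description of letters in a short window.

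In edgeR's quasi-likelihood test, with Benjamini-Hochberg adjustment over the 22544 genes tested, 5 of the 10 members were higher with TGF-β1 and 0 were lower at an adjusted p under 0.05. Among all genes tested 20.9% were called higher and 20.3% lower, 41.3% in all. At an unadjusted p under 0.05, 6 members were higher and 0 lower, against 23.5% and 23.4% of all genes. DESeq2 called 4 higher, against 16.7% of the genes it gave an adjusted p, and 0 lower, for which its share over all genes is not given here. The members that rose were *Sod3*, *Nox4*, *Hmox1*, *Sod2* and *Sod1*, in order of size. All 10 passed the filter on low counts and have a value here. Their median log2 fold change was 0.12, against -0.01 over all genes tested. The cultures of the groups did not overlap in 5 members, *Sod3*, *Nox4*, *Hmox1*, *Sod2* and *Cyba*, with TGF-β1 on the higher side, as in 19.1% of all genes. In all genes 37.9% did not overlap in either direction, 18.8% with TGF-β1 on the lower side, where no member stood. So *Sod1* was called with overlapping groups and *Cyba* stood apart without being called. Within a group the coefficient of variation ran from 0.728% (*Cyba*, vehicle) to 28.3% (*Nox1*, TGF-β1).

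**Figure D1:**
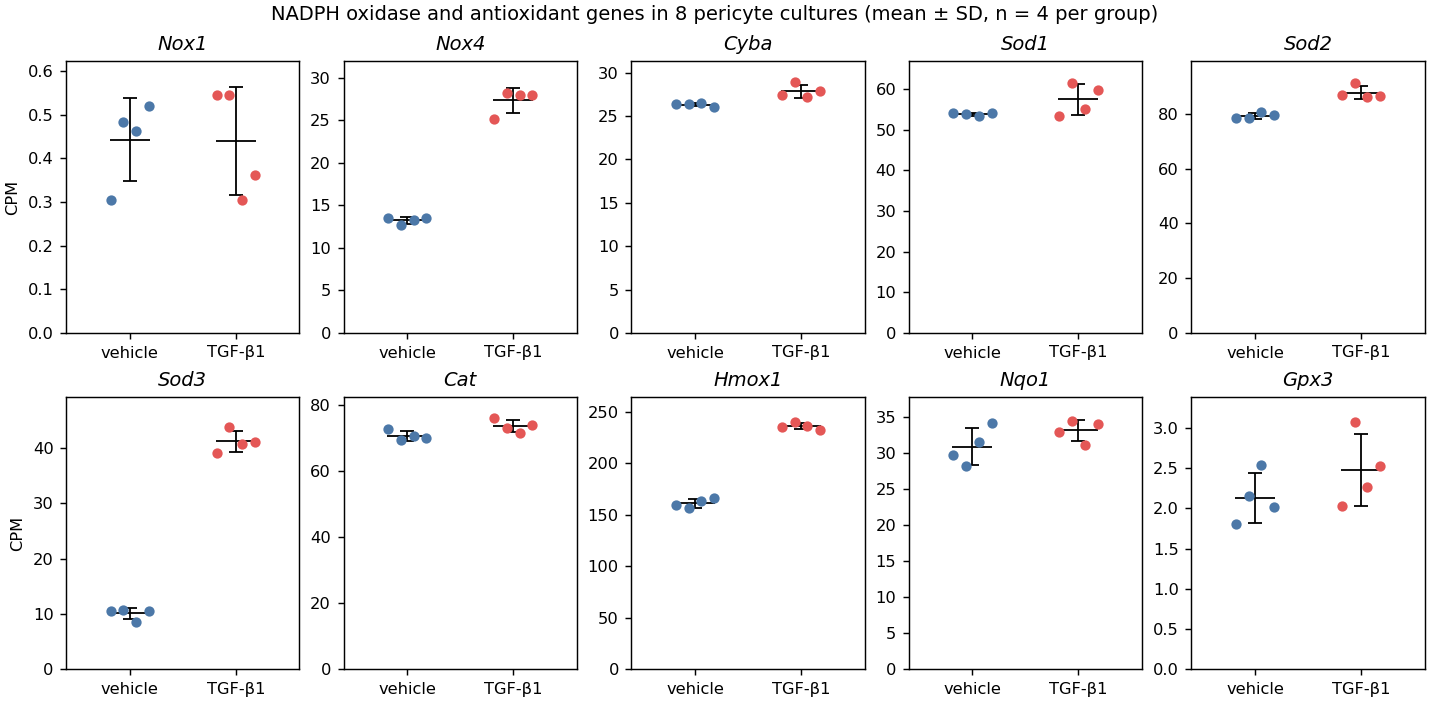
Normalized level (CPM, linear axis from 0) of each of the 10 genes in the 4 vehicle cultures (blue) and the 4 TGF-β1 cultures (red); points are cultures, bars the mean ± SD. *Sod3*, *Nox4* and *Hmox1* show a wide gap between the groups, *Sod2* and *Cyba* a narrow one, and the other genes overlap.

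*Nox4* (ENSMUSG00000030562, chr7:87246096-87398710, plus strand of GRCm38) was the oxidase gene that rose among the members. Its level was 13.6, 12.7, 13.2 and 13.6 CPM in the vehicle cultures and 25.2, 28.3, 28.0 and 28.0 CPM in the TGF-β1 cultures. All treated cultures lay above all vehicle cultures, and TGF-β1 replicate 5 was the lowest of its group. The means were 13.2 ± 0.427 and 27.4 ± 1.45 CPM (SD, n = 4 each), a 2.06-fold rise (log2 fold change 1.04, standard error 0.05, edgeR adjusted p = 4.70e-21). Of the genes tested, 543 had a larger log2 fold change.

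*Nox1* (ENSMUSG00000031257, chrX:134086421-134221956, minus strand) was close to the lower limit of what these libraries can measure, with between 14 and 25 counts per culture. The vehicle cultures were at 0.304, 0.482, 0.463 and 0.520 CPM, and the TGF-β1 cultures at 0.545, 0.544, 0.305 and 0.362 CPM. The groups overlapped fully (log2 fold change -0.01, standard error 0.32, edgeR adjusted p = 0.984), and its approximate 95% interval ran from -0.64 to 0.61 on the log2 scale, so changes of that size were not detectable at this depth. Of its exon bases, 12.1% lie in exons of *Cstf2* on the other strand, and the strand setting of the counting is not given in the sources used here.

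*Cyba* (ENSMUSG00000006519, chr8:122424776-122432930, minus strand), the p22phox partner of both, stayed within a narrow band. Its vehicle cultures were at 26.3, 26.4, 26.5 and 26.1 CPM and its TGF-β1 cultures at 27.4, 28.9, 27.2 and 27.9 CPM. Each treated culture was above each vehicle culture (p = 0.0286 in a two-sided exact permutation test, the lowest that 4 against 4 allow), but the log2 fold change of 0.08 (standard error 0.04) was not called by edgeR (adjusted p = 0.139).

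The list of oxidase subunits and partners, which also holds *Nox1*, *Nox4* and *Cyba*, had 18 genes, of which 13 were tested. In edgeR 4 of these were higher (30.8%, *Nox4* included), 2 were lower (15.4%) and 7 were not called, against 20.9% higher and 20.3% lower among all genes. *Cybb*, the catalytic subunit of the phagocyte type oxidase, fell from 33.8, 33.8, 29.9 and 32.1 CPM in the vehicle cultures to 12.7, 13.9, 12.96 and 10.8 CPM with TGF-β1. No culture of one group came near the other. The log2 fold change was -1.36 (standard error 0.06, edgeR adjusted p = 5.11e-22), and 274 genes had a lower one. *Ncf1*, the organiser p47phox of that oxidase, was lower as well, at 2.08 ± 0.290 CPM with vehicle and 1.24 ± 0.273 CPM with TGF-β1 (SD, n = 4 each; log2 fold change -0.74, standard error 0.17, edgeR adjusted p = 0.000445). *Ncf4* had between 0 and 2 counts per culture, as did *Noxa1*, the activator for NOX1. The NOX1 organiser *Noxo1* was at 0.651 ± 0.164 CPM with vehicle and 0.651 ± 0.141 CPM with TGF-β1 (SD, n = 4 each), and 70.4% of its exon bases lie in exons of *Tbl3*. *Nox3*, known from the inner ear, had between 2 and 7 counts per culture and was not tested.

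Since NOX2 is best known from phagocytes, the macrophage and microglia markers are given beside the fall of *Cybb*. The 8 listed markers summed to between 8.31 and 9.23 CPM with vehicle and to between 9.58 and 11.3 CPM with TGF-β1. Of the 6 tested, 1 was higher (*Csf1r*) and 0 were lower in edgeR, against 20.9% and 20.3% of all genes. *C1qa* and *Tyrobp* did not pass 0.05 CPM in any culture. In bulk samples, fewer cells of a type and less RNA per cell cannot be told apart.

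Dual oxidases, which make hydrogen peroxide at the cell surface, were low but higher with TGF-β1. *Duox1* was at 2.39, 1.56, 1.77 and 1.43 CPM in the vehicle cultures and at 4.45, 4.07, 3.56 and 4.15 CPM in the TGF-β1 cultures, which lay above all of these. Its log2 fold change was 1.18 (standard error 0.14, edgeR adjusted p = 1.62e-09). *Duox2* rose too, from a level of 4 to 9 counts per culture with vehicle to 14 to 28 with TGF-β1 (log2 fold change 1.67, standard error 0.42, edgeR adjusted p = 0.000993). *Duoxa1*, the maturation factor that brings DUOX1 to the surface, was picked after its values were seen. It went from 0.363 ± 0.132 to 1.31 ± 0.251 CPM (SD, n = 4 each), with a log2 fold change of 1.85 (standard error 0.26, edgeR adjusted p = 8.26e-08), and 17.1% of its exon bases overlap *Duoxa2*.

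**Figure D2:**
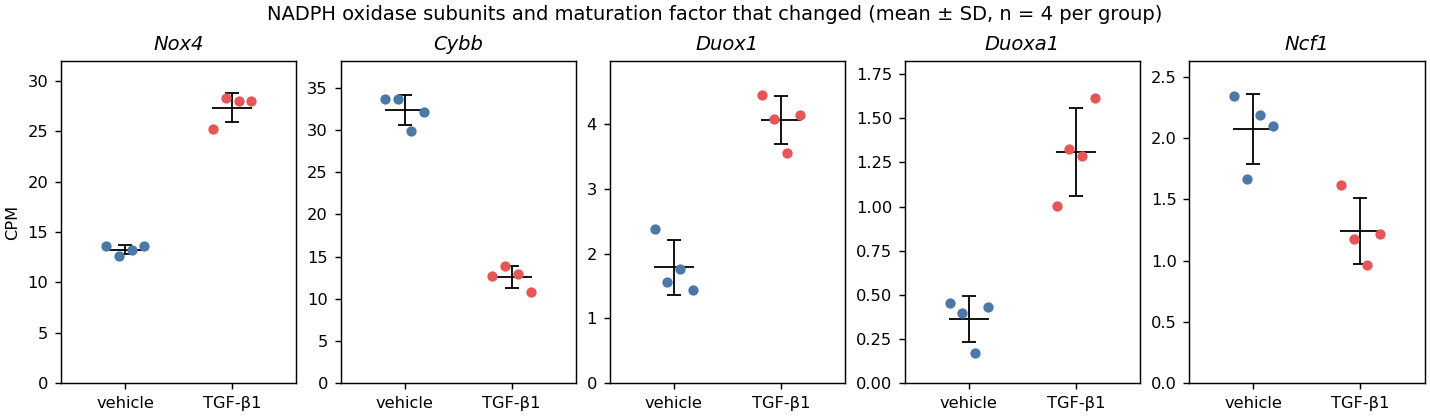
Level (CPM, linear axes from 0) of 5 oxidase genes in the vehicle (blue) and TGF-β1 (red) cultures; points are cultures, bars the mean ± SD of 4. *Nox4*, *Duox1* and *Duoxa1* are higher and *Cybb* and *Ncf1* lower with TGF-β1, without overlap.

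To see how this changed the makeup of the oxidases, the counts of *Nox1*, *Nox3*, *Nox4*, *Cybb*, *Duox1* and *Duox2* were each divided by the length of the gene's exons and expressed as a share of their sum. *Nox4* held 19.95%, 19.2%, 21.6% and 20.9% in the vehicle cultures and 47.2%, 49.1%, 51.5% and 53.2% in the TGF-β1 cultures. The share of *Cybb* went the other way, from 72.6% ± 1.46 to 33.7% ± 2.47 (SD, n = 4 each), and that of *Duox1* from 4.41% ± 0.952 to 12.0% ± 1.29. The *Nox4* share thus differed by 29.8 percentage points (p = 0.0286, two-sided exact permutation test, again the lowest possible). *Nox1* held 1.75% ± 0.410 with vehicle and 2.06% ± 0.552 with TGF-β1 (SD, n = 4 each). With the length of each gene's principal transcript in place of all its exons, a choice made after the data were seen, the *Nox4* share was 32.3% and 66.1%.

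The superoxide dismutases differed in how far they moved. *Sod3* (ENSMUSG00000072941, chr5:52363791-52371418, plus strand), the secreted enzyme that binds to heparan sulfate around cells, had the highest log2 fold change of the 10 genes. It was at 10.6, 10.6, 8.59 and 10.5 CPM in the vehicle cultures and at 39.2, 43.8, 40.8 and 41.1 CPM in the TGF-β1 cultures. Vehicle replicate 3 was the lowest, and the distance between the groups was many times the spread within them. The means of 10.1 ± 0.994 and 41.2 ± 1.93 CPM (SD, n = 4 each) correspond to a 4.10-fold rise (log2 fold change 2.03, standard error 0.06, edgeR adjusted p = 7.67e-30). Of the genes tested, 101 had a larger log2 fold change.

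*Sod2* (ENSMUSG00000006818, chr17:13006846-13040063, plus strand), the manganese enzyme of mitochondria, rose by a small amount. The vehicle cultures were at 78.5, 78.4, 80.5 and 79.6 CPM and the TGF-β1 cultures at 87.0, 91.2, 86.0 and 86.4 CPM, without overlap. The log2 fold change was 0.15 (standard error 0.03, edgeR adjusted p = 5.00e-05).

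*Sod1* (ENSMUSG00000022982, chr16:90220754-90226329, plus strand), the copper and zinc enzyme of the cytosol, was near the threshold. It was at 54.2, 53.8, 53.3 and 54.2 CPM with vehicle and at 53.5, 61.6, 55.1 and 59.9 CPM with TGF-β1. The treated cultures spread more widely, and replicate 5 fell within the vehicle range. Its log2 fold change of 0.09 (standard error 0.04) had an edgeR adjusted p of 0.0358, which was 0.0752 in DESeq2 and 0.249 without TGF-β1 replicate 6. The call also ended without TGF-β1 replicate 8 (adjusted p = 0.0990) and without vehicle replicates 2, 3 or 4 (0.0518, 0.0509 and 0.0575).

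Per length of exon, *Sod3* made up 11.1% ± 0.989 of the summed dismutase counts with vehicle and 32.2% ± 0.416 with TGF-β1 (SD, n = 4 each; exact permutation test, two-sided, p = 0.0286). *Sod1* went from 56.1% ± 0.274 to 42.2% ± 1.02 of that sum and *Sod2* from 32.8% ± 0.739 to 25.6% ± 0.795. The size of these shares depends on the length used, because the exons annotated for *Sod1* add up to 3970 bases while its principal transcript has 641. With principal transcript lengths the *Sod3* share was 2.69% with vehicle and 9.54% with TGF-β1. Of the genes that supply copper, *Atp7a*, the transporter that loads copper enzymes in the secretory path, rose from 87.1 ± 2.29 to 112 ± 3.58 CPM (SD, n = 4 each; log2 fold change 0.36, standard error 0.03, edgeR adjusted p = 1.97e-14). Over the list of dismutases and copper genes, 4 of the 6 tested were higher and 0 lower in edgeR, against 20.9% and 20.3% of all genes, and 1 of the 4 is *Sod1*, whose call ended in the settings named above.

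**Figure D3:**
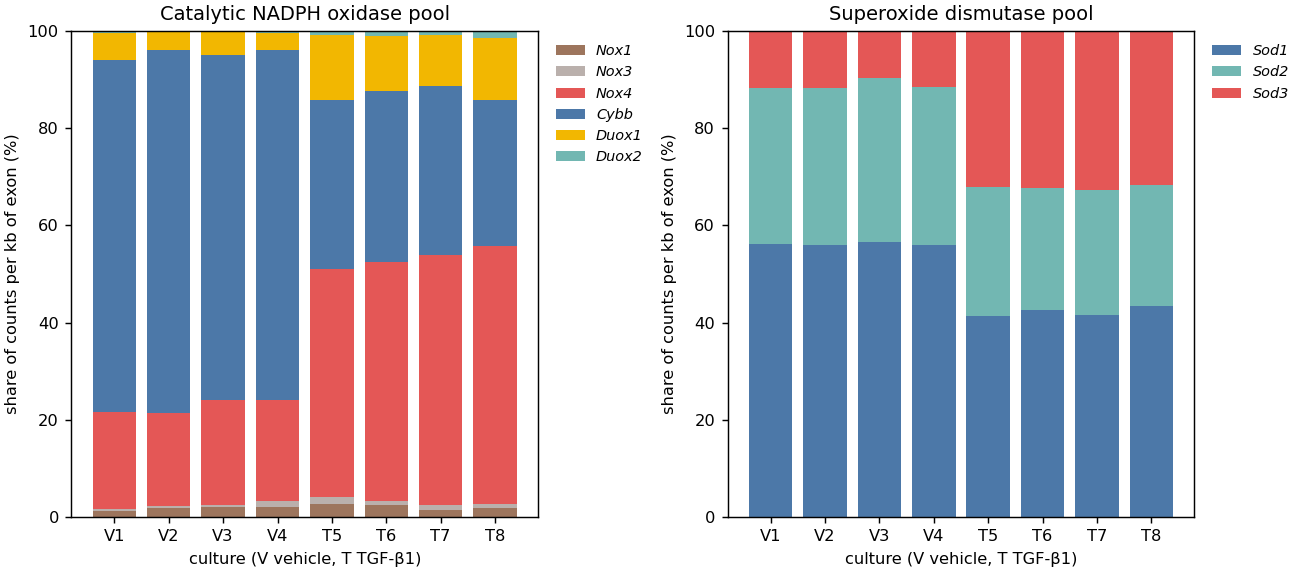
Share (%) of each gene in the summed counts per kilobase of exon, for the catalytic NADPH oxidases (left) and the superoxide dismutases (right); each bar is 1 culture, V1 to V4 with vehicle and T5 to T8 with TGF-β1. The *Nox4* part grows from a mean of 20.4% to 50.2% and the *Sod3* part from 11.1% to 32.2%.

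*Hmox1* (ENSMUSG00000005413, chr8:75093621-75100589, plus strand) encodes heme oxygenase 1, which splits heme into biliverdin, iron and carbon monoxide. It was at 160, 156, 163 and 166 CPM in the vehicle cultures and at 236, 241, 236 and 233 CPM in the TGF-β1 cultures. The groups were far apart relative to their spread (161 ± 4.30 and 236 ± 3.23 CPM, SD, n = 4 each). The log2 fold change was 0.55 (standard error 0.02, edgeR adjusted p = 8.10e-23).

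*Nqo1* (ENSMUSG00000003849, chr8:107388225-107403206, minus strand) encodes a quinone reductase and is widely used, like *Hmox1*, as a readout of NRF2. It was at 29.8, 28.3, 31.6 and 34.2 CPM with vehicle and at 32.9, 34.5, 31.2 and 34.1 CPM with TGF-β1. The groups overlapped, and the log2 fold change of 0.10 (standard error 0.05) was not called (edgeR adjusted p = 0.0884). It passed the threshold without vehicle replicate 4 (log2 fold change 0.15, adjusted p = 0.0102) and without TGF-β1 replicate 7 (adjusted p = 0.0494).

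*Cat* (ENSMUSG00000027187, chr2:103453849-103485160, minus strand), the catalase of peroxisomes, was at 72.9, 69.5, 70.5 and 70.02 CPM with vehicle and at 76.0, 73.0, 71.6 and 73.9 CPM with TGF-β1. These ranges overlapped (log2 fold change 0.06, standard error 0.03, edgeR adjusted p = 0.135). *Gpx3* (ENSMUSG00000018339, chr11:54902453-54910377, plus strand), the glutathione peroxidase secreted into plasma, had between 83 and 141 counts per culture. It was at 1.80, 2.15, 2.55 and 2.02 CPM with vehicle and at 2.03, 3.07, 2.27 and 2.53 CPM with TGF-β1, again with overlap (log2 fold change 0.22, standard error 0.15, edgeR adjusted p = 0.260). Its share of the summed counts per length of *Gpx1* to *Gpx8* was 0.449% ± 0.0595 and 0.467% ± 0.0760 (SD, n = 4 each; exact permutation test, two-sided, p = 0.686).

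**Figure D4:**
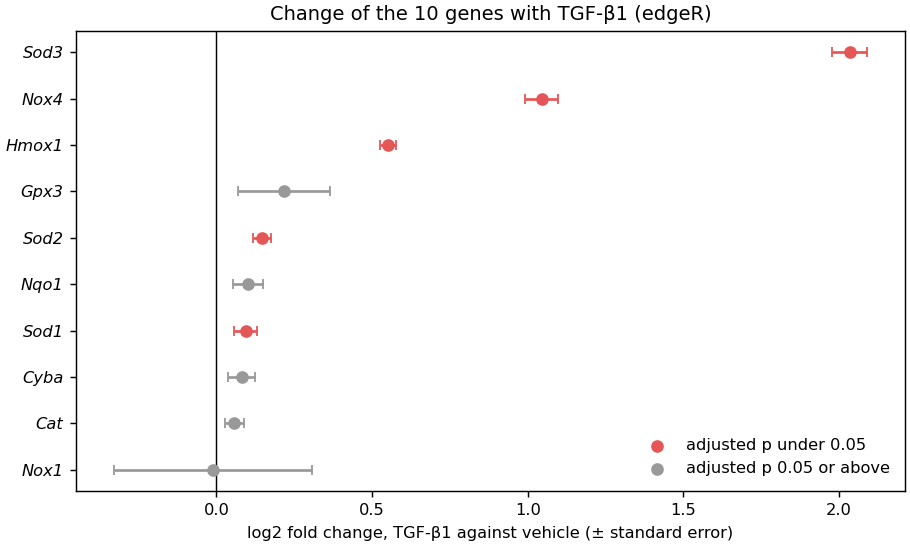
Log2 fold change of the 10 genes with TGF-β1 against vehicle, with its standard error, from edgeR; red marks an adjusted p under 0.05. *Sod3* (2.03), *Nox4* (1.04) and *Hmox1* (0.55) stand apart, and the other values lie between -0.01 and 0.22.

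Levels of different genes can be compared only per length. In the vehicle cultures, on the scale of CPM per kilobase of exon, the order was *Hmox1* (92.2 ± 2.46), *Cat* (27.1 ± 0.571), *Cyba* (25.3 ± 0.185), *Nqo1* (19.9 ± 1.64), *Sod1* (13.6 ± 0.1004), *Sod2* (7.92 ± 0.102), *Sod3* (2.69 ± 0.266), *Nox4* (1.56 ± 0.0504), *Gpx3* (1.17 ± 0.173) and *Nox1* (0.134 ± 0.0288; SD, n = 4 each). Each gap between neighbours was larger than the SDs of both genes. With TGF-β1 *Sod3* reached 11.03 ± 0.516 and passed *Sod2* at 8.76 ± 0.241 (SD, n = 4 each), and no other pair changed places. In those cultures the level of *Cat* (28.2 ± 0.705) and *Cyba* (26.8 ± 0.723) per kilobase lay within the sum of their SDs. With principal transcript lengths *Sod1* moved to the second place after *Hmox1* and *Sod3* stayed below *Sod2* in both groups. *Cyba* then stood above *Cat* in both groups. On that scale *Nox4* was above *Sod3* with vehicle (3.53 and 2.69) and below it with TGF-β1 (7.29 and 11.03). The order of these genes thus rests on the annotation.

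The other genes of the pathway were taken from 9 lists with 123 genes in all, of which 110 were tested. In edgeR 46 were higher and 27 lower, or 41.8% and 24.5%, against 20.9% and 20.3% of all genes. These shares of all genes were not matched to the listed genes by expression level. The lists hold the 10 members too. As a median over these 110 genes the log2 fold change was 0.05.

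Enzymes that remove peroxide rose or were not called. In the list of catalase, glutathione peroxidases and peroxiredoxins, 9 of the 13 tested were higher (69.2%) and 0 were lower in edgeR. Among all genes 20.9% were higher and 20.3% lower. The median log2 fold change of the list was 0.17. *Prdx6*, a peroxiredoxin that reduces phospholipid peroxides, went from 59.0 ± 3.07 to 93.0 ± 3.71 CPM (SD, n = 4 each; log2 fold change 0.66, standard error 0.03, edgeR adjusted p = 5.81e-20). *Prdx5*, found in mitochondria and peroxisomes, rose by 0.57 on the log2 scale, and *Gpx7*, a peroxidase of the endoplasmic reticulum, by 0.26.

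Genes of the glutathione and thioredoxin systems were split, with 7 of 18 higher (38.9%) and 8 lower (44.4%), against 20.9% and 20.3% of all genes. Their median log2 fold change was 0.02. *Gclm*, the modifier subunit of the enzyme that starts glutathione synthesis, rose from 54.8 ± 1.54 to 77.6 ± 2.19 CPM (SD, n = 4 each). *Gclc*, the catalytic subunit of the same enzyme, named after its values were seen, was lower, at 396 ± 9.68 CPM with vehicle and 349 ± 5.87 CPM with TGF-β1 (SD, n = 4 each; log2 fold change -0.18, standard error 0.02, edgeR adjusted p = 9.07e-09). Thioredoxin reductases *Txnrd1* and *Txnrd3* rose by 0.44 and 0.52 on the log2 scale, and *Txnrd2*, named after its values were seen, was not called (log2 fold change 0.03, adjusted p = 0.839). *Slc7a11*, the cystine importer that feeds glutathione synthesis, fell from 270 ± 6.57 to 187 ± 12.1 CPM (SD, n = 4 each; log2 fold change -0.53, standard error 0.04, edgeR adjusted p = 1.80e-10). The thioredoxin inhibitor gene *Txnip* had a log2 fold change of -0.60 and *Ggt7* of -0.55, both called lower.

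Among the glutathione S-transferases, which couple glutathione to reactive compounds, 3 of 19 tested were higher (15.8%) and 7 lower (36.8%). The shares over all genes were 20.9% and 20.3%. The median log2 fold change of the list was -0.17. *Gstm1* went from 163 ± 3.87 to 91.4 ± 5.30 CPM (SD, n = 4 each; log2 fold change -0.84, standard error 0.03, edgeR adjusted p = 2.11e-23). *Gstm7* (log2 fold change -1.55) and *Gstt1* (-0.66) were lower too, while the microsomal *Mgst2* (0.84) and *Mgst1* (0.42) and the omega class *Gsto1* (0.28) were higher. The *Gstm* genes are close copies of each other, and reads that fit more than 1 of them may be split or lost in the counting, so their values are uncertain.

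The mRNA of NRF2 itself did not pass the test, and NRF2 protein and activity were not measured. *Nfe2l2* was at 311 ± 1.20 CPM with vehicle and 315 ± 5.36 CPM with TGF-β1 (SD, n = 4 each; log2 fold change 0.02, edgeR adjusted p = 0.509), and its inhibitor *Keap1* at 54.7 ± 1.94 and 52.6 ± 1.18 CPM (adjusted p = 0.197). *Bach1*, a repressor at the same elements, was lower by a small amount (log2 fold change -0.16, standard error 0.04, edgeR adjusted p = 0.000938). Of the small MAF partners, *Maff* rose from 24.6 ± 1.41 to 49.7 ± 1.46 CPM (SD, n = 4 each; log2 fold change 1.02, standard error 0.04, edgeR adjusted p = 3.15e-24), and *Mafk* rose by 0.30 on the log2 scale, while *Mafg*, named after its values were seen, was not called (log2 fold change 0.02, adjusted p = 0.570). The repressor gene *Bach2* rose as well (log2 fold change 1.02), at a low level of 1.03 ± 0.223 and 2.10 ± 0.356 CPM (SD, n = 4 each), and *Nfe2l1* was lower (-0.10). In all, 4 of the 11 genes of NRF2 and its regulators were higher (36.4%) and 2 lower (18.2%), against 20.9% and 20.3% of all genes.

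Known NRF2 targets did not move as a block. Of 24 tested, 14 were higher (58.3%) and 8 were lower (33.3%) in edgeR, against 20.9% and 20.3% of all genes. Their median log2 fold change was 0.17. *Hmox1* had the highest value of the list, followed by *Gclm* (0.50) and the NADPH source *Me1* (0.45). At the other end stood *Gstm1* (-0.84), *Gsta4* (-0.63) and *Slc7a11* (-0.53). *Nqo1* was 1 of the 2 targets that were not called.

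**Figure D5:**
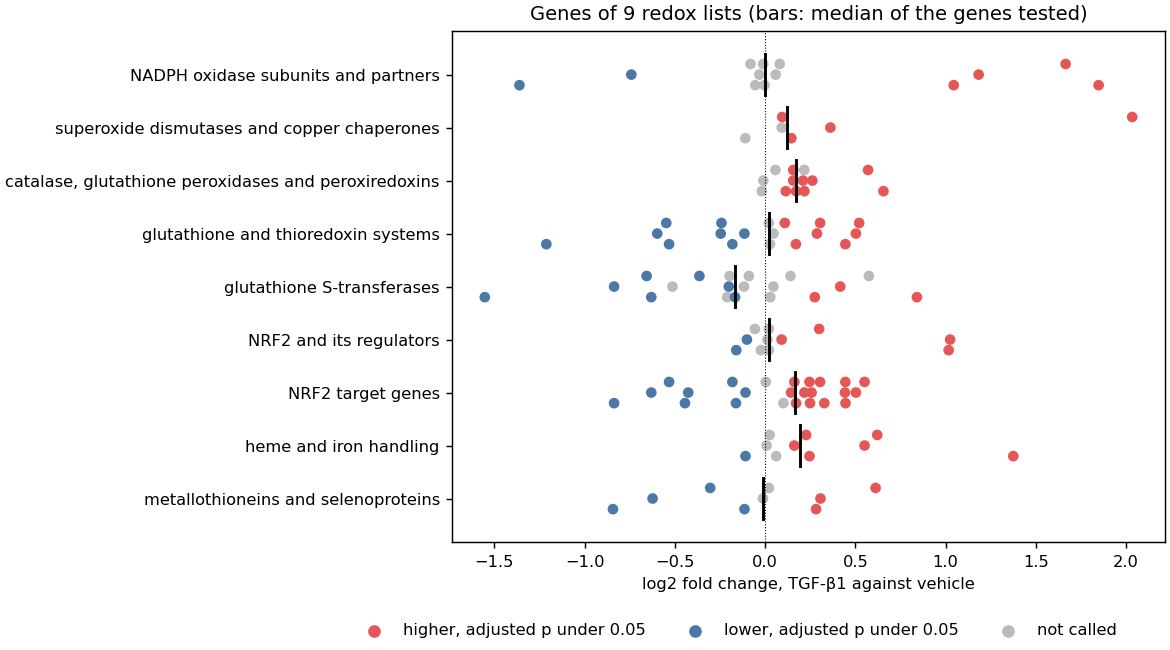
Log2 fold change of each gene tested in the 9 redox lists; red and blue mark genes called higher and lower by edgeR at an adjusted p under 0.05, grey the rest, and black bars the median of a list. The peroxidase and dismutase lists hold no blue points, whereas the glutathione S-transferase list leans to the left.

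Markers of other cell types moved in part alongside these changes. The fibroblast list summed to between 1652 and 1734 CPM with vehicle and to between 2567 and 2694 CPM with TGF-β1, and 1 of its 3 tested genes was higher (*Col1a1*, which makes up most of the sum) and 1 lower (*Dcn*), with *Lum* at no more than 0.13 CPM. The pericyte list summed to between 418 and 439 CPM and to between 578 and 601 CPM, with 3 of 7 higher (*Pdgfrb*, *Mcam* and *Cspg4*, the last from 82.9 ± 2.50 to 169 ± 5.62 CPM) and 2 lower (*Anpep* and *Rgs5*, the last from 8.62 ± 0.466 to 2.13 ± 0.245 CPM; SD, n = 4 each). The astrocyte list summed to between 15.5 and 17.0 CPM and to between 23.5 and 26.5 CPM, with *Aqp4* at no more than 0.13 CPM, and 2 of its 4 tested genes were higher and 1 lower. *Aldh1l1* rose from 5.16 ± 0.422 to 8.79 ± 0.305 CPM and *Slc1a3* from 9.74 ± 0.569 to 15.2 ± 1.083 CPM, and *Gjb6* fell from 0.719 ± 0.121 to 0.0434 ± 0.0356 CPM (SD, n = 4 each). The endothelial list summed to between 389 and 404 CPM and to between 373 and 399 CPM, and 0 of 4 were higher and 1 lower (*Tek*, with overlapping groups and an adjusted p of 0.0126 that reached 0.115 with 1 culture left out). The oligodendrocyte list summed to between 3.86 and 5.07 CPM and to between 5.15 and 5.70 CPM, with *Mag* at no more than 0.05 CPM, and 1 of 3 was higher (*Mbp*) and 0 lower. Among all genes 20.9% were called higher and 20.3% lower in edgeR. The part of these other cell types in the changes of the redox genes was not tested.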

How the data were processed

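RNA from 8 mouse brain pericyte cultures was sequenced as stranded total RNA libraries, 4 with TGF-β1 and 4 with vehicle. According to the methods and the submitters' processing notes, the authors aligned reads to mm10 with STAR 2.7.5c in 2-pass mode, dropped PCR duplicates by means of SAMtools 1.15 and obtained counts for each gene from featureCounts 2.0.3. They deposited raw counts without normalization, 1 library per culture. The annotation release, the strand setting and the handling of reads that fit several genes are not given in the sources used here. Low counts (1 to 20) were even in 68.5% to 70.2% of cases, and a fit on halved counts was therefore among the alternatives.

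Identifiers were paired with symbols (54409 of 54532) and with GENCODE M21 positions on GRCm38, the assembly that mm10 names. Pairs of cultures within a group differed by more than sampling noise (chi-square per degree of freedom of 1.12 to 1.96 on halved counts), and each was counted as 1 replicate. The comparison used edgeR 4.0.16 in R 4.3.3 with filterByExpr, TMM factors, robust dispersion, the quasi-likelihood test and Benjamini-Hochberg adjustment over 22544 genes, with a threshold of 0.05. A standard error is the log2 fold change divided by the square root of F. The code was tested on simulated data. Differences in shares were assessed by exact permutation over the 70 splits of the cultures, two-sided. Upstream sequences came from RefSeq (GRCm38.p6).

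The members and gene lists were chosen with earlier results of these data known. Named genes are the members, the oxidase subunits, *Nfe2l2*, *Keap1*, *Bach1*, *Cthrc1* and, per list, the up to 3 largest rises and 3 largest falls past the threshold with a mean of at least 1 CPM, and 1 of the subunits is not reported here. Alternatives were DESeq2 1.42.0, other scalings, filters of at least 1 count in any or 10 in every culture, halved counts, other lengths, and each culture left out.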

Additional observations from a re-analysis of the deposited data

Results flagged for a closer look

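In 5 of 108 groups of 4 values, 1 value stood away from the rest by Dixon's test, and chance alone flags about 5.4 of that many. TGF-β1 replicate 5 had 25.2 CPM of *Nox4*, next to 28.0 in the nearest culture of its group. For *Sod3*, vehicle replicate 3 had 8.59 CPM and the nearest culture 10.5, and the *Sod3* share of the superoxide dismutase counts was 9.66% in the same culture against 11.5%. TGF-β1 replicate 8 had 106.6 CPM of *Atp7a*, next to 113 in the nearest culture. TGF-β1 replicate 5 also had 1.57 CPM of *Bach2*, next to 2.23. In *Nox4*, *Sod3*, *Atp7a* and *Bach2* the groups stayed apart with these cultures included.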

How the results depend on the processing

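No paired analysis was possible because the labels give the vehicle and TGF-β1 cultures no number in common. Of the 50 named genes tested, 46 kept their direction and their side of the threshold in every alternative run, and 4 did not (*Nox1*, *Noxo1*, *Sod1* and *Nqo1*). The number of members called higher was 4 with DESeq2 and with library totals as the only scaling, and between 4 and 6 with each culture left out. DESeq2 called 16.7% of its genes higher. The shares of all genes called in the other runs are not given here, so those counts only show how far the calls moved. *Nox1* had a log2 fold change of 0.04 with halved counts and between -0.15 and 0.12 with each culture left out. *Noxo1* was at 0.00 with DESeq2 and with its size factors in edgeR, at 0.01 with halved counts and between -0.16 and 0.19 with each culture left out. Both had at most 42 counts per culture, and neither was called in any fit. *Sod1* lost its call with library totals (adjusted p = 0.0626) as well as in the cases given with its values. *Duox2* was too low to be fitted with at least 10 counts in every culture and with halved counts. The cause of these moves was not tested. The *Sod3* share rose by 21.1 points, by 15.1 without division by length and by 6.85 with principal transcript lengths, and by 20.6 to 21.3 with each culture left out. The *Nox4* share rose by 28.9 to 33.8 points in all these settings. With each culture left out, both shares kept p = 0.0286 in an exact permutation test on the absolute difference, the lowest it allows, and the difference in the *Gpx3* share ran from -0.0148 to 0.0449 points.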

Other observations

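Of 10 heme and iron genes listed, *Hmox1* included, edgeR called 6 higher and 1 lower at an adjusted p under 0.05, against 20.9% and 20.3% of all genes, with a median log2 fold change of 0.19. *Slc40a1*, which encodes the iron exporter ferroportin, went from 2.06 ± 0.349 to 5.35 ± 0.955 CPM (SD, n = 4 each; log2 fold change 1.38, standard error 0.13, adjusted p = 6.62e-12). *Tfrc*, the transferrin receptor that brings iron in, went from 53.5 ± 3.95 to 82.3 ± 2.85 CPM (SD, n = 4 each; log2 fold change 0.62). Genes for iron import and iron export were both higher in the treated cultures, while *Fth1*, the ferritin heavy chain that stores iron, was lower by a small amount (log2 fold change -0.11, adjusted p = 0.000545). The ferritin light chain gene *Ftl1*, named after its values were seen, was higher (log2 fold change 0.16, adjusted p = 1.96e-06).

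Among metallothioneins and selenoproteins, 3 of the 9 tested were higher and 4 lower, against the same 20.9% and 20.3%. The metallothionein genes *Mt1* and *Mt2*, whose products bind zinc and copper, rose by 0.31 and 0.61 on the log2 scale, and 73.5% of the exon bases of *Mt2* overlap an antisense gene. *Selenop*, the secreted selenium carrier, fell from 810 ± 15.5 to 452 ± 31.2 CPM (SD, n = 4 each; log2 fold change -0.84, standard error 0.04, edgeR adjusted p = 1.65e-08). *Selenom* (-0.62) and *Msrb1* (-0.30) were lower and *Selenon* (0.28) was higher.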
